A study of Homo sapiens with 8 samples.

Results

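SERPINB2 and 5 further genes of the urokinase system, SERPINE2, PLAU, PLAUR, PLAT and SRPX2, were followed in an indisulam-resistant pancreatic cancer line and in the parental line it came from. These are 6 of 60675 gene lines in the count files, and all 6 passed the filter on low counts that left 16661 genes. They were picked by symbol, and the set was chosen because SERPINB2 and SRPX2 are among the largest measured differences between the lines. The levels of the lines against each other are therefore given as a description, without a test. Drug responses, and how they differed between the lines, were tested.

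Panc10.05 is an established human pancreatic ductal adenocarcinoma line. Indisulam is an aryl sulfonamide that recruits RBM39, a factor in splicing, to the ubiquitin ligase receptor DCAF15, whereupon the RBM39 protein is degraded. There were 4 groups of 2 libraries. Parental cells were left untreated or received 2 µM indisulam for 18 h. The resistant line had been derived from the parental line by culture in rising doses of indisulam, and whether it is a single clone is not stated. Resistant indisulam cells were kept on 2 µM indisulam without a break, whereas resistant untreated cells were on a drug holiday of a week. Both resistant groups therefore share a long earlier exposure. The 2 drug contrasts therefore differ in duration: hours after first contact in parental cells, and continued treatment against withdrawal in resistant cells. Growth and treatment notes in the labels name A549, a lung cancer line, whereas titles and cell line field name Panc10.05, which was followed. Libraries of the same group are technical replicates in the words of the study, so p-values cover only the spread between these libraries.

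Plasminogen activation is a cascade of serine proteases at the cell surface. Urokinase, encoded by PLAU, binds its receptor, encoded by PLAUR, and cleaves plasminogen to plasmin, which degrades fibrin and matrix and activates other proteases. Tissue-type plasminogen activator, encoded by PLAT, does the same mainly on fibrin. Inhibitors of the serpin family, such as the products of SERPINB2 and SERPINE2, trap these proteases in a covalent complex. SRPX2 encodes a secreted protein that has been described as a ligand of the urokinase receptor. In pancreatic cancer the system is best known for its link to invasion.

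Among the genes of the set with parental reads, SERPINB2 and SRPX2 showed the widest gap between the lines. The 250 bases before their transcription starts are shown for that reason. For SERPINE2, which had no parental read, only a lower limit of the gap is known. Both sequences are from RefSeq on GRCh38.p14, read 5′ to 3′ on the plus strand. The capitals mark TGANTCA, the core of the site that AP-1 factors (dimers of the FOS, JUN and ATF families) bind, a motif that reads the same on both strands.
SERPINB2 chr18:63887455-63887704: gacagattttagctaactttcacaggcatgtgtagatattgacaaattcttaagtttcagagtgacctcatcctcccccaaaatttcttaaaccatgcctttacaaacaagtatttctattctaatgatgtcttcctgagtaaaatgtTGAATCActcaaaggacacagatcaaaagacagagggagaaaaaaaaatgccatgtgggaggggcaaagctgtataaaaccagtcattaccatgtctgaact
SRPX2 chrX:100643949-100644198: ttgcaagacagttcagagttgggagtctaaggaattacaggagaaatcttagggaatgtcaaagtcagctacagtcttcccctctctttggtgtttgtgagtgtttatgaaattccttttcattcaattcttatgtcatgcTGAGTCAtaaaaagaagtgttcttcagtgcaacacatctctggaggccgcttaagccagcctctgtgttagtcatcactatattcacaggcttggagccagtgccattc
The motif began 102 bases before the start of SERPINB2 and 109 bases before that of SRPX2. In PLAUR it began 186 bases before the start, and it was in neither of 2 windows of PLAU nor in either of 2 windows of SERPINE2. For PLAT no window is given here, so the set is not covered in full. Of all 35116 windows of 250 bases in the table, 2308 held it (6.57%). A match is a description of letters and not a shown site. The window of SERPINB2 lies inside the gene as GENCODE draws it, since a longer transcript starts upstream, and the last bases of the SRPX2 window lie in the first exon of a GENCODE transcript.

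The libraries held between 65266253 and 108002436 reads in genes, with 22728 to 25263 genes detected. Levels are CPM, the reads of a gene as a share of the library total after TMM scaling, which corrects totals for differences in composition. All 7 markers of pancreatic ductal epithelium were expressed, and their summed level ran from 4173 to 4457 CPM in parental and from 6903 to 7804 CPM in resistant libraries. PTPRC, the pan-leukocyte marker, and the fibroblast markers DCN and LUM had no read in any library. COL1A1 was the only fibroblast marker that reached 1 CPM, and in resistant cells it went from 1.34 and 1.85 CPM off the drug to 3.96 and 3.89 CPM on it. CSF1R, a macrophage marker, went from 2.92 and 2.93 to 4.70 and 4.70 CPM there, but it was highest in parental cells off the drug (at least 5.38 CPM) and lower on it (3.27 and 3.47 CPM). ITGAM, of the same list, was at 0.0387 to 0.101 CPM in parental libraries, 0.338 and 0.708 CPM in resistant libraries off the drug and 0.964 and 1.12 CPM on it. COL1A1 and CSF1R moved with SERPINB2 and SRPX2 in resistant cells and ITGAM also between the lines, and their part in those results was not tested. The summed levels of the 6 markers each of macrophages and of fibroblasts ranged from 3.55 to 6.22 CPM and from 1.35 to 4.06 CPM, and that of the 5 endothelial markers from 0.207 to 0.447 CPM. The transcript of the drug target rose with the drug in both lines: RBM39 stood at 332 and 337 CPM off and 716 and 731 CPM on the drug in the parental line, against 299 and 311 CPM off and 577 and 591 CPM on the drug in the resistant line. In bulk RNA, fewer expressing cells and less RNA per cell cannot be told apart, and this holds for each level below.

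**Figure D1:**
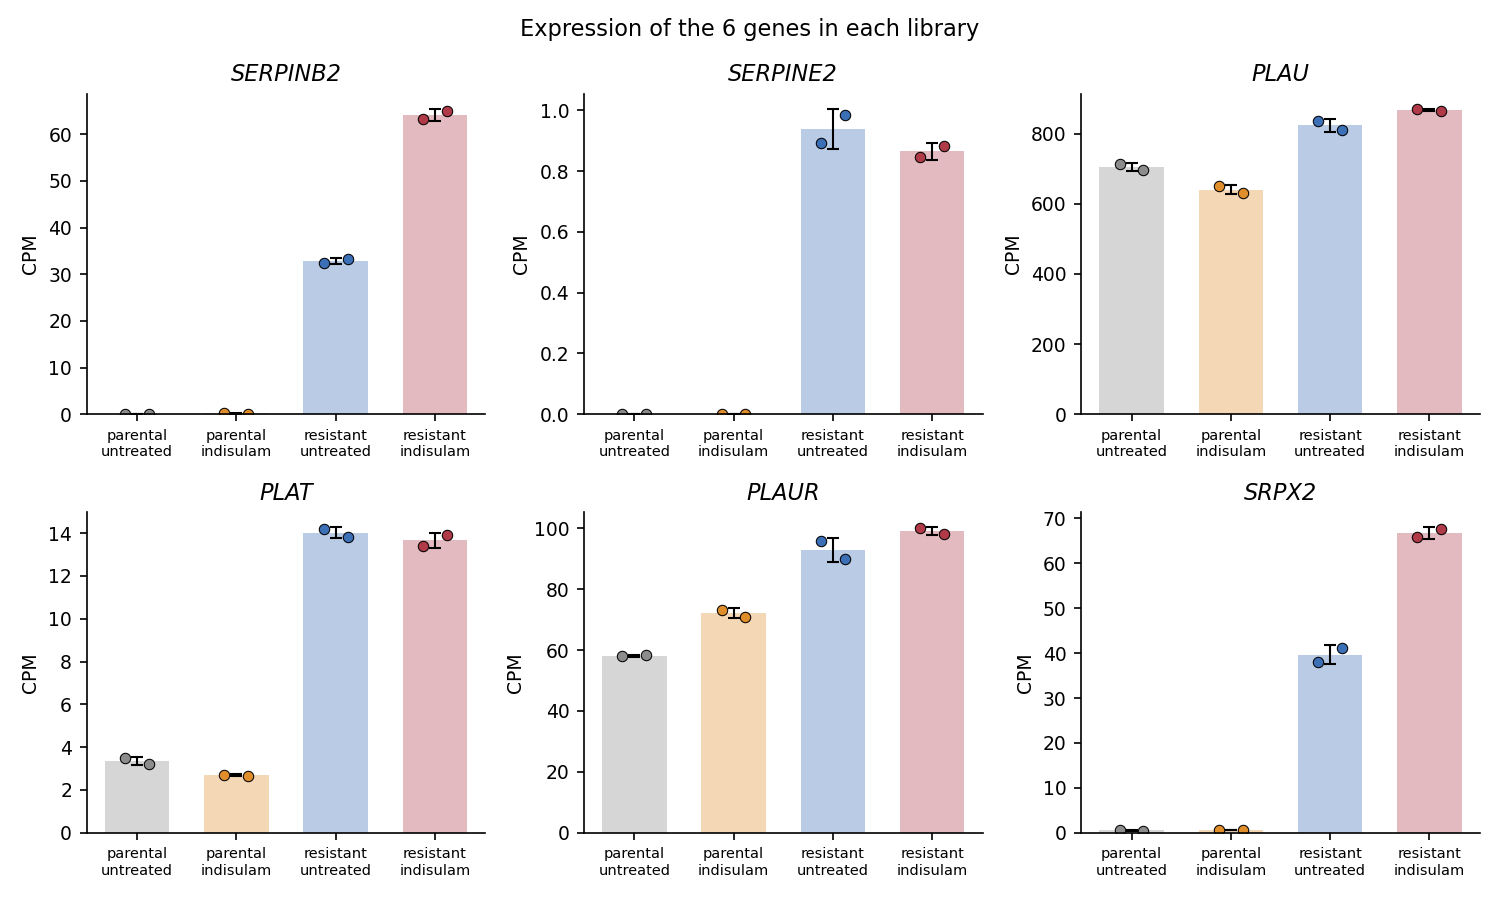
Expression of the 6 genes in CPM, on linear axes that start at 0 and differ between panels. Points are single libraries, bars are means and error bars are SDs of the 2 libraries of a group; SERPINB2, SERPINE2 and SRPX2 sit at or near 0 in parental cells, and SERPINB2 goes from 32.9 to 64.2 CPM with the drug in resistant cells.

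The inhibitor SERPINB2 was barely detected in parental cells and abundant in resistant cells. SERPINB2 (ENSG00000197632, chromosome 18, 63871692 to 63903888, plus strand) encodes plasminogen activator inhibitor type 2, a clade B serpin that inhibits urokinase and is largely retained inside the cell. It was at 0.0914 and 0.103 CPM in parental untreated libraries (10 and 11 reads) and at 0.227 and 0.129 CPM in parental indisulam libraries (17 and 10 reads). Resistant untreated libraries held 32.4 and 33.4 CPM (2401 and 2167 reads), and resistant indisulam libraries 63.3 and 65.1 CPM (4267 and 6259 reads). The 4 groups did not overlap. The mean of the resistant line was 339 times that of the parental line off the drug and 361 times on it.

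Within resistant cells SERPINB2 rose 1.95-fold with the drug, or by 0.97 log2 units (SE 0.039, adjusted p 1.2e-15). In parental cells the log2 fold change was 0.86 (95% interval 0.091 to 1.63, adjusted p 0.063) and was not called. It rested on few reads: without the second parental indisulam library it was 1.19 (adjusted p 0.029), and over all libraries left out in turn it lay between 0.39 and 1.19. The difference of the responses was 0.11 log2 units with an interval from -0.76 to 0.97 (adjusted p 0.86), so that a difference was not detectable at this depth, and equal responses are not shown either. Part of the exons of SERPINB2, 20%, is shared with a readthrough gene (ENSG00000289724) that has no line in the count files, and its share of the reads is not known.

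The other serpin of the set, SERPINE2, was seen in resistant cells only. SERPINE2 (ENSG00000135919, chromosome 2, 223975045 to 224039318, minus strand) encodes protease nexin 1, an extracellular inhibitor of thrombin, urokinase and plasmin. Each of the 4 parental libraries had 0 reads, which allows up to 0.0274 to 0.0400 CPM per library (3 reads). Resistant untreated libraries had 0.891 and 0.986 CPM (66 and 64 reads), and resistant indisulam libraries 0.845 and 0.884 CPM (57 and 85 reads). The resistant line was at least 31.7-fold higher off the drug and at least 21.1-fold higher on it, taking the lowest resistant library over the highest parental limit. The drug had no detectable effect on it in resistant cells (log2 fold change -0.11, interval -0.48 to 0.27, adjusted p 0.64). With no read in parental cells, neither a parental response nor a difference of responses could be estimated, and SERPINE2 counts as not called there. SERPINE2 passed the filter on low counts through the resistant libraries alone. At the cutoff set by all 8 libraries, SERPINB2, with 10 to 17 reads per parental library, would narrowly have failed on its parental libraries.

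The activator PLAU was the most abundant of the 6 genes, and its response went opposite ways in the lines. PLAU (ENSG00000122861, chromosome 10, 73909177 to 73917496, plus strand) went from 714 and 698 CPM off the drug to 650 and 631 CPM on it in parental libraries. In resistant libraries it went from 836 and 811 to 870 and 866 CPM. No 2 groups overlapped, and the resistant line was 1.17 times the parental line off the drug and 1.35 times on it.

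In parental cells PLAU fell by 0.14 log2 units with the drug (SE 0.028, adjusted p 0.0002). In resistant cells it rose by 0.08 (SE 0.028, adjusted p 0.03), a call that was lost without any one of 5 libraries, with DESeq2 size factors and without a filter. The responses differed by 0.22 log2 units (SE 0.040, adjusted p 0.00011), and this difference was called with each library left out in turn (0.20 to 0.26). C10orf55, an antisense transcript that covers 31% of the exons of PLAU, held 0.196 to 0.334% of the reads of the pair.

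PLAT, the other activator, was weakly expressed in parental cells and higher in resistant cells. PLAT (ENSG00000104368, chromosome 8, 42174718 to 42207709, minus strand) was at 3.50 and 3.23 CPM off and 2.72 and 2.67 CPM on the drug in the parental line, against 14.2 and 13.8 CPM off and 13.4 and 13.9 CPM on the drug in the resistant line. The resistant line was 4.17 times the parental line off the drug and 5.07 times on it. The drug groups were apart in parental cells and overlapped in resistant cells.

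With the drug PLAT fell by 0.32 log2 units in the parental line (SE 0.085, adjusted p 0.0026). In resistant cells the log2 fold change was -0.03 (adjusted p 0.63), and 0.01 when libraries were scaled by their totals alone. The difference of the responses was 0.28 (SE 0.10, adjusted p 0.023). It was not called by the DESeq2 Wald test (adjusted p 0.13), nor without the first parental untreated library (0.22, adjusted p 0.14), the second parental indisulam library (0.29, adjusted p 0.057) or the second resistant indisulam library (0.28, adjusted p 0.057).

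The receptor PLAUR rose with the drug in both lines, by a larger step in parental cells. PLAUR (ENSG00000011422, chromosome 19, 43646095 to 43670547, minus strand) encodes a membrane-anchored protein that holds urokinase at the cell surface. It was at 57.9 and 58.2 CPM off and 73.2 and 70.9 CPM on the drug in the parental line, against 95.8 and 90.1 CPM off and 100 and 98.2 CPM on the drug in the resistant line. Parental cells on the drug stayed below resistant cells off it, and the resistant line was 1.60 times the parental line off the drug and 1.38 times on it.

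PLAUR rose by 0.31 log2 units in parental cells (SE 0.033, adjusted p 3.9e-08) and by 0.09 in resistant cells (SE 0.033, adjusted p 0.023). The smaller of these calls was lost with the DESeq2 Wald test and without the second resistant untreated library (0.04, adjusted p 0.36) or without either resistant indisulam library (0.07 and 0.10). The responses differed by -0.22 log2 units (SE 0.047, adjusted p 0.00043), and by -0.10 (adjusted p 0.069) with library totals alone.

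SRPX2, the ligand of the receptor, went from under 1 CPM to levels near those of SERPINB2. SRPX2 (ENSG00000102359, chromosome X, 100644195 to 100675788, plus strand) was at 0.576 and 0.487 CPM in parental untreated libraries (63 and 52 reads) and at 0.694 and 0.671 CPM in parental indisulam libraries (52 reads each). It was at 38.1 and 41.2 CPM in resistant untreated libraries (2823 and 2673 reads) and at 65.8 and 67.6 CPM in resistant indisulam libraries (4436 and 6505 reads). The ratio of the lines was 74.6 off the drug and 97.8 on it, and no groups overlapped.

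With the drug SRPX2 rose 1.68-fold in resistant cells, or by 0.75 log2 units (SE 0.039, adjusted p 1.3e-13). In parental cells the log2 fold change was 0.36 (interval -0.02 to 0.74, adjusted p 0.10) and was not called. The difference of the responses, 0.39 (SE 0.19, adjusted p 0.086), was not called either, but it was called with library totals alone (0.51, adjusted p 0.032), among genes with a mean CPM of at least 1 (0.48, adjusted p 0.038) and without the second resistant untreated library (0.46, adjusted p 0.04).

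SRPX2 shares sequence with SYTL4, a gene on the opposite strand whose exons cover 52% of those of SRPX2. SYTL4 held 68.7 to 76.0% of the reads of the pair in parental and 6.83 to 11% in resistant libraries. SYTL4 itself was at 1.75 and 1.54 CPM off and 1.64 and 1.47 CPM on the drug in the parental line, against 4.17 and 5.07 CPM off and 4.82 and 4.99 CPM on the drug in the resistant line. It was not called for the drug in either line (log2 fold changes -0.09 and 0.09, adjusted p 0.61 and 0.45). The strand setting of the counting is not given in the sources used here, so the low parental level of SRPX2 is the more uncertain.

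**Figure D2:**
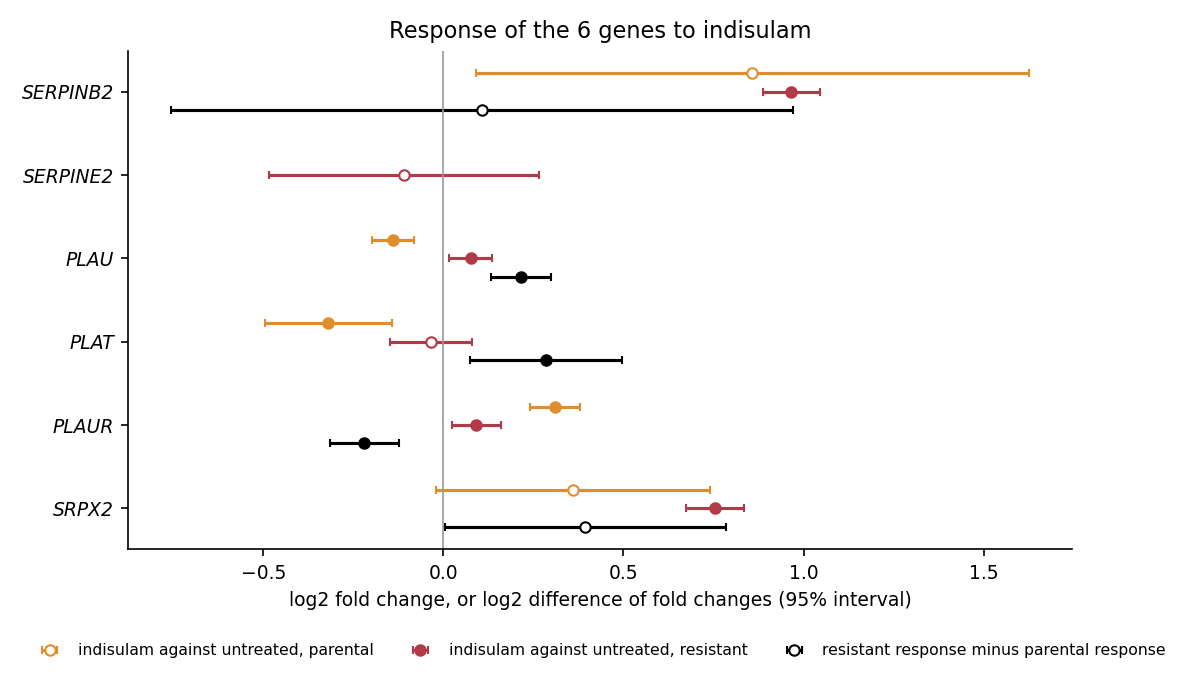
Response of the 6 genes to indisulam on the log2 scale with 95% intervals, in parental cells (orange), in resistant cells (red) and as the difference of the responses (black). Filled points passed an adjusted p of 0.05 over all genes tested and open points did not; SERPINE2 has a value in resistant cells alone, and the intervals of SERPINB2 are wide wherever parental reads enter.

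Read together, the 6 genes moved in different ways with the drug. In parental cells 1 was called higher (PLAUR) and 2 lower (PLAU and PLAT), where 31.6% and 26.6% of all 16661 genes tested were called higher and lower (58.2% in all). In resistant cells 4 were called higher (SERPINB2, SRPX2, PLAUR and PLAU) and none lower, where the shares of all genes were 24.9% and 25.8% (50.7% in all). Against 0.5 log2 units by glmTreat, SERPINB2 and SRPX2 kept their call in resistant cells and no gene of the set did in parental cells.

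The median response of the 5 genes with reads in every library was 0.31 log2 units in parental and 0.09 in resistant cells, where that of all genes tested was 0.01 in both. The difference of the responses was called for 3 genes, 2 higher (PLAU and PLAT) and 1 lower (PLAUR), where 50.1% of all genes were called, 22.7% higher and 27.5% lower. Its median was 0.22 over these 5 genes and 0.01 over all. Scaling by library totals alone moved the median of all genes in this contrast by 0.12 and turned the split: 65.8% of the calls were then higher, against 45.2% with TMM. The same scaling took the higher share from 54.3 to 42.0% in parental and from 49.1 to 59.7% in resistant cells.

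Between the lines all 6 genes were higher in resistant cells, off the drug and on it. Of all genes tested, 60.1% were called off the drug (30.3% higher and 29.9% lower) and 69.5% on it (34.6% higher and 34.9% lower). Since the set was picked on these differences, nothing is read from that count.

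Per kilobase of exon, PLAU led in each group and the serpin changed place. In parental untreated cells the order was PLAU (239 CPM per kb), PLAUR (13.0), PLAT (0.433), SRPX2 (0.0689), SERPINB2 (0.0354) and SERPINE2 (0), and the order was the same in parental indisulam cells. In resistant untreated cells it was PLAU (279), PLAUR (20.9), SERPINB2 (12), SRPX2 (5.14), PLAT (1.80) and SERPINE2 (0.105). SERPINB2 moved from the fifth to the third place.

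In resistant indisulam cells SERPINB2 (23.4 ± 0.462 CPM per kb, SD, n = 2) stood above PLAUR (22.2 ± 0.281). The libraries of neighbours in these orders did not overlap. That last order hung on the length used: over the longest transcript SERPINB2 was at 29.4 and 30.2 CPM per kb and PLAUR at 62.1 and 61.0.

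Unlike SERPINB2, the inhibitors SERPINA5 and TFPI2 fell with the drug in resistant cells. SERPINA5, the protein C inhibitor, fell there from 4.08 and 3.85 to 1.68 and 1.52 CPM (log2 fold change -1.32, SE 0.13, adjusted p 6.1e-09), and was at 0.168 to 0.262 CPM in parental cells. TFPI2, a Kunitz-type inhibitor of plasmin and other serine proteases, fell by 0.30 log2 units (SE 0.032, adjusted p 3.6e-08). Of the 8 genes of the inhibitor list 4 were tested. In resistant cells 2 of them fell and 1 rose, where 25.8% of all genes tested fell and 24.9% rose. The rise was that of SERPINI1 (0.61, adjusted p 0.029). Its call was lost with the DESeq2 Wald test (0.60, adjusted p 0.079) and with the replicate block (adjusted p 0.05). It was also lost without the second library of either resistant group.

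SERPINB2 lies in a cluster of clade B serpins, and its nearest expressed neighbours differed far less between the lines. Distances here are between nearest ends, negative before SERPINB2. HMSD, at 45.4 kb, was at 2.75 and 2.82 CPM in parental and 3.79 and 3.90 CPM in resistant libraries off the drug, and it rose with the drug in resistant cells (0.30 log2 units, adjusted p 0.0084) to 4.57 and 4.85 CPM. In untreated libraries SERPINB7, at -66.3 kb, lay between 9.70 CPM in a parental and 10.9 CPM in a resistant library. SERPINB8, at 66.1 kb, was at 22.7 and 23.3 CPM in parental against 33.6 and 32.1 CPM in resistant cells. SERPINB5, which encodes maspin and lies at -366.6 kb, had 35.9 and 35.7 CPM in parental cells and at least 48.7 CPM in resistant cells. SERPINB10, at 4.1 kb, had at most 1 read in any library.

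The squamous cell carcinoma antigen genes SERPINB3 and SERPINB4, at -209.8 and -227.4 kb, were weak but on the side of SERPINB2. Parental libraries held up to 0.0400 CPM of SERPINB3 and 0.0667 CPM of SERPINB4, and resistant libraries 0.108 to 0.250 and 0.524 to 0.593 CPM. These 2 genes are near-identical copies, so reads may be split between them. SERPINB11, SERPINB12 and SERPINB13 were at or near 0.

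With the drug SERPINB7 rose in both lines, by 0.38 log2 units in parental (adjusted p 2.6e-06) and by 0.26 in resistant cells (adjusted p 0.00062). SERPINB9, an inhibitor of granzyme B, went opposite ways: it fell by 0.36 in parental (adjusted p 3.1e-07) and rose by 0.38 in resistant cells (adjusted p 1.1e-07). Of the 12 other clade B serpins 8 were tested, of which 3 rose and 3 fell with the drug in parental cells, and 2 rose and none fell in resistant cells. Of all genes tested, 31.6% rose and 26.6% fell in parental cells, and 24.9% rose and 25.8% fell in resistant cells.

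**Figure D3:**
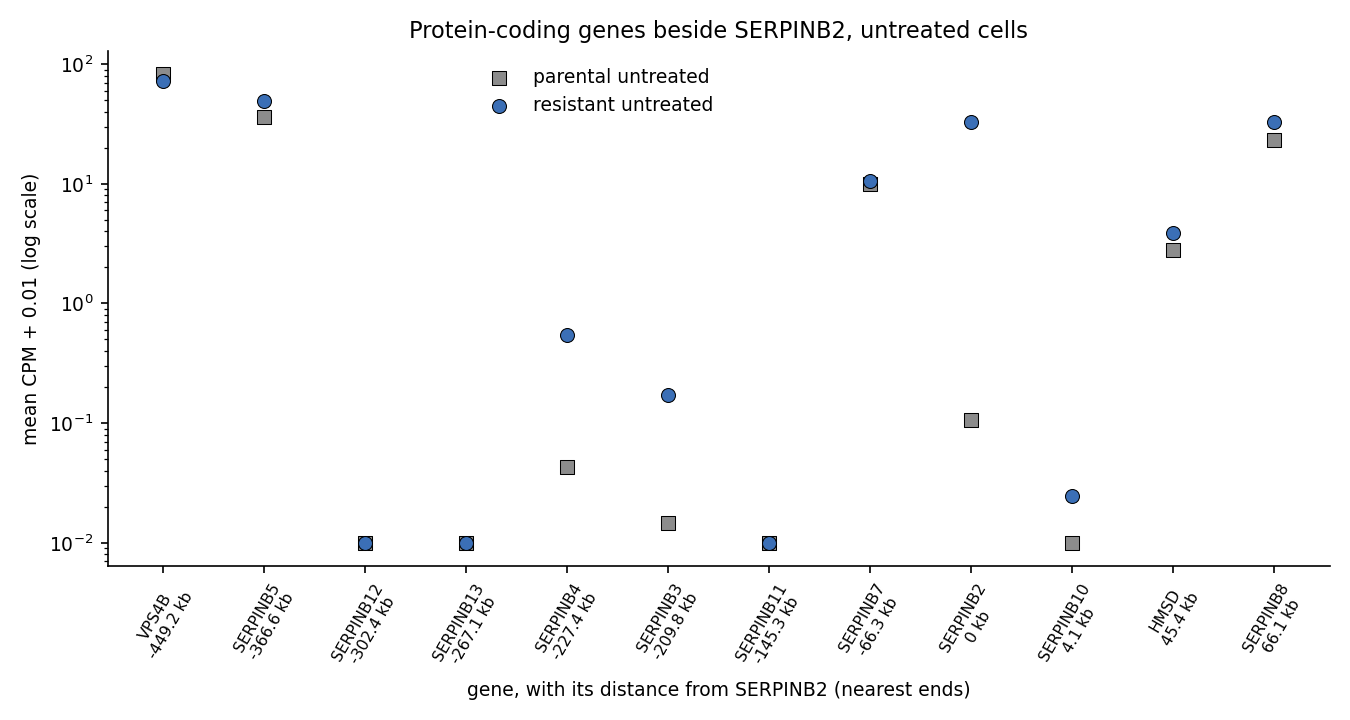
Mean CPM of the protein-coding genes within 500 kb of SERPINB2 in untreated cells, in their order along the chromosome with the distance between nearest gene ends in kb (negative before SERPINB2, positive after it). The axis is logarithmic and 0.01 was added to each mean so that genes with no read can be drawn; SERPINB2 and the weakly expressed SERPINB3 and SERPINB4 show gaps between the squares (parental) and the circles (resistant), while the other neighbours that are expressed lie close together.

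Over a wider set of 81 genes in 8 lists around plasminogen activation, 56 passed the filter on low counts. With the drug 23 were called higher and 8 lower in parental cells (median log2 fold change 0.11), and 23 higher and 17 lower in resistant cells (median 0.03). Over all genes tested the shares called higher and lower were 31.6% and 26.6% in parental and 24.9% and 25.8% in resistant cells, and these are the shares to set beside each list. The difference of the responses was called higher for 17 and lower for 21 genes (median -0.07), and with library totals alone for 19 and 12, where 22.7% and 27.5% of all genes were called higher and lower. Between the lines 36 were higher and 9 lower in resistant cells off the drug (median 0.39), and 36 and 10 on it (median 0.24), again as a description, beside 30.3% and 29.9% of all genes off the drug and 34.6% and 34.9% on it. Without ITGB3, which had no read in parental indisulam cells, these medians were 0.12, 0.02, -0.07, 0.35 and 0.24. Some genes of the lists, MMP9 among them, passed the filter through the resistant libraries alone, which bears on the counts between the lines.

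Activation of urokinase and of plasminogen showed few expressed players. PLG, which encodes plasminogen itself, had 1 read in 1 resistant indisulam library and none in the other 7. ST14, encoding matriptase, a membrane protease that activates pro-urokinase, rose by 0.32 log2 units in resistant cells (adjusted p 1.3e-08) and by 0.14 in parental cells (adjusted p 0.00054). Its parental call was lost without the first parental indisulam library (0.08, adjusted p 0.08) and with library totals alone (0.08, adjusted p 0.053). F12, encoding coagulation factor XII, rose in resistant cells by 0.33 (adjusted p 0.004), a call lost without the first resistant untreated or the second resistant indisulam library. Both genes of this list that were tested, of 7, rose in resistant cells.

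Among 5 tested genes that bind plasminogen at the cell surface, 4 fell with the drug in resistant cells and 1 rose, where 25.8% of all genes fell and 24.9% rose. PLGRKT, a plasminogen receptor, fell in both lines, by 0.58 log2 units in parental (adjusted p 6.6e-11) and by 0.80 in resistant cells (adjusted p 6.9e-13). ANXA2, encoding annexin A2, fell by 0.32 in resistant cells (adjusted p 7.2e-09), whereas in parental cells the log2 fold change was 0.14 (adjusted p 0.00055), or 0.09 and not called without the second parental indisulam library (adjusted p 0.067). KRT8, a keratin that can hold plasminogen at the surface of carcinoma cells, rose by 0.20 in resistant cells (adjusted p 5.6e-06).

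Of the partners of the urokinase receptor and its clearance receptors, 10 of 15 were tested, with 4 higher and 3 lower in resistant cells on the drug and 4 higher and 1 lower in parental cells. ITGA5, a subunit of the fibronectin receptor, was at 7.92 and 7.77 CPM off and 7.95 and 7.48 CPM on the drug in the parental line, against 32.6 and 31.0 CPM off and 49.4 and 49.6 CPM on the drug in the resistant line. This is the pattern of SERPINB2 and SRPX2 at a higher base: a step between the lines and a further rise with the drug in resistant cells (0.64 log2 units, adjusted p 2.4e-12). Here the difference of the responses was called (0.66, adjusted p 4.7e-08). LRP1, the endocytic receptor that clears urokinase bound to its inhibitors, was at 6.51 to 7.91 CPM in parental and 24.0 to 28.4 CPM in resistant libraries. EGFR fell by 0.35 in resistant cells (adjusted p 3.5e-10).

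Matrix proteases were mostly weak. MMP9, the gelatinase B gene, was at 0.0274 to 0.0934 CPM in parental libraries, 4.75 and 4.99 in resistant untreated and 3.44 and 3.18 CPM in resistant indisulam libraries, a fall of 0.56 log2 units with the drug (adjusted p 8.6e-05). Of 7 tested genes of this list 4 fell and 2 rose with the drug in resistant cells. The metalloprotease inhibitors TIMP1 (-0.34, adjusted p 3e-10) and TIMP2 (-0.30, adjusted p 1.2e-07) were among those that fell. Both rises and 1 of the falls were in genes with a mean under 1 CPM. That fall and 1 of the rises were lost with the DESeq2 Wald test (adjusted p 0.076 and 0.17). Beside this list and the next, 25.8% of all genes tested fell and 24.9% rose in resistant cells. The next list holds growth factors and receptors that the system acts on. LTBP1, which anchors latent TGF-beta in the matrix, rose by 0.64 log2 units in resistant cells (adjusted p 3.8e-09). Of the 5 tested genes of that list 1 rose and 3 fell (TGFB1, F2R and F2RL1). All 3 falls were lost with library totals alone (adjusted p 0.065, 0.17 and 0.091).

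Genes of the AP-1 and ETS factors and of NF-kappa-B were all expressed, and most rose with the drug. Of 15 genes 9 rose and 1 fell in parental cells and 10 rose and 1 fell in resistant cells, with medians of 0.14 and 0.15 log2 units. Of all genes tested 31.6% rose in parental and 24.9% in resistant cells. Between the lines off the drug, 7 of the 15 were higher and 3 lower in resistant cells, as a description. The shares of all genes in that contrast were 30.3% and 29.9%. FOSB was at 2.83 and 2.40 CPM off and 2.85 and 2.60 CPM on the drug in the parental line, against 4.01 and 4.33 CPM off and 11.2 and 9.96 CPM on the drug in the resistant line. Its rise of 1.34 log2 units in resistant cells (SE 0.087, adjusted p 8.8e-12) had no detectable counterpart in parental cells (0.06, adjusted p 0.67), and the responses differed by 1.28 (adjusted p 9e-08).

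ATF3, a stress-induced factor of the same group, rose by 1.18 in resistant (adjusted p 9.8e-15) and by 0.22 log2 units in parental cells (adjusted p 0.00041). FOS rose by 0.70 in resistant (adjusted p 9.9e-11) and by 0.49 in parental cells (adjusted p 1.7e-08). JUN fell by 0.23 in parental (adjusted p 0.00029) and rose by 0.22 in resistant cells (adjusted p 0.00022). Whether these factors act on SERPINB2 or SRPX2 in these cells was not tested.

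**Figure D4:**
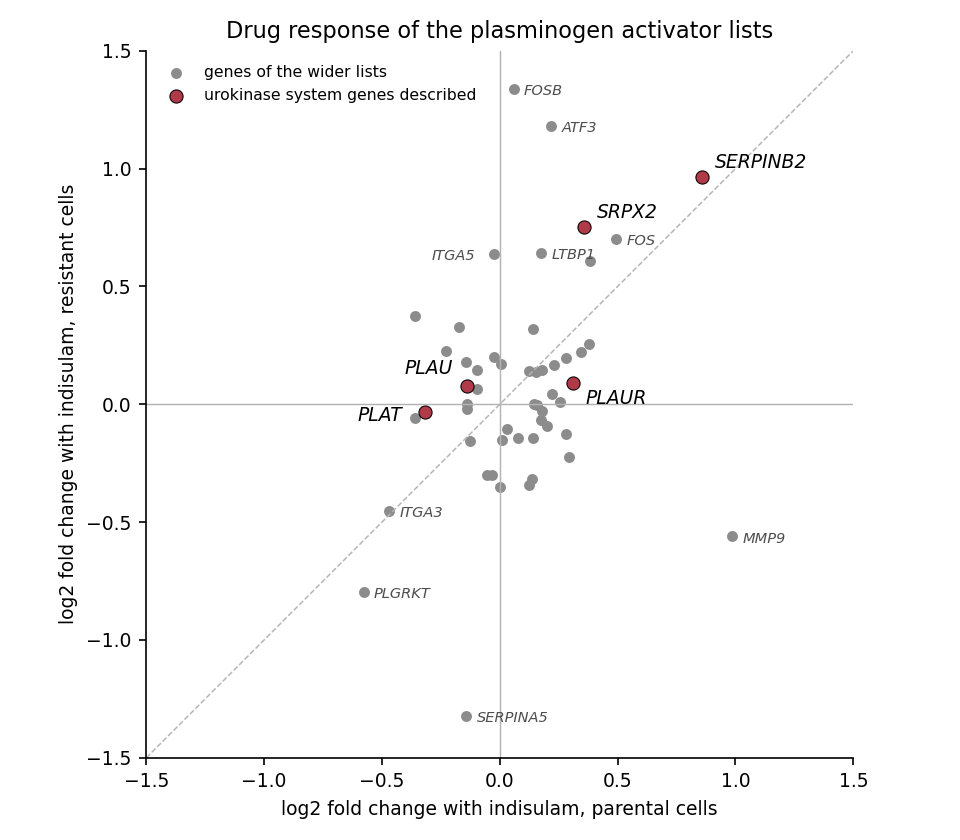
Response to indisulam in parental cells (x axis) and in resistant cells (y axis), log2 fold changes of the genes of the wider lists with a mean of at least 1 CPM (grey) and of 5 of the genes described (red; SERPINE2 has no parental value). The dashed line marks equal responses; SERPINB2 lies near it at 0.86 and 0.97, FOSB and ATF3 lie far above it, and SERPINA5 and MMP9 far below it, MMP9 with few parental reads.

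Finally, the genes whose levels ran most like those of SERPINB2 and SRPX2 were listed. Pearson's r of log2 CPM over the 8 libraries was taken among 449 genes with a mean of at least 1 CPM and a range of at least 2 log2 units. It is a description, because the libraries fall into lines. Any gene with a gap in the same direction can score high, whatever the size of the gap. An r above 0.99 was reached by 70 genes with SERPINB2 and by 83 with SRPX2. SERPINB2 was most like IGSF3 (0.9989), SRPX2 (0.9985), SOX4 (0.9983), CALD1 (0.9981) and SH3BGRL (0.9981). SRPX2 was most like CALD1 (0.9994), SOX4 (0.9990), SH3BGRL (0.9990), SRGN (0.9989) and FN1 (0.9988).

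CALD1, encoding the actin-binding protein caldesmon, had means of 6.07 CPM off and 7.20 CPM on the drug in the parental line, against 50.4 CPM off and 60.4 CPM on it in the resistant line. FN1, encoding fibronectin, had means of 36.1, 40.8, 137 and 173 CPM in the same order. SRGN, encoding the proteoglycan serglycin, had means of 0.0692, 0.118, 6.75 and 13.6 CPM. IGSF3, the first name for SERPINB2, had means of 1.84, 2.01, 10.4 and 12.2 CPM, a far smaller step between the lines than that of SERPINB2. The leading names were not stable, since on the log2(CPM + 1) scale 1 of the 5 genes stayed among the leading 5 for SERPINB2 and none for SRPX2.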

How the data were processed

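Polyadenylated RNA of 8 Panc10.05 libraries was sequenced as stranded, paired-end libraries. The authors trimmed reads with SeqPurge and aligned them to GRCh38, and they deposited raw read counts per gene. The submitters' processing notes name HISAT2 2.2.1, Picard and HTSeq. Which of these counted, with which strand setting and annotation, is not given in the sources used here, so reads of overlapping genes may be split by rules unknown here. Reads marked as duplicates were counted apart and are not in the gene counts. The 9 lines of unassigned reads, 37.9 to 44.9% of all reads listed in a file, were left out of library sizes and tests. GENCODE release 44 gave symbols and positions for 60419 of 60675 identifiers.

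Counts were analysed in R 4.3.3 with edgeR 4.0.16 (filterByExpr, TMM, robust glmQLFit, quasi-likelihood F-test, group means model, all 8 libraries in 1 fit). P-values were adjusted by Benjamini-Hochberg over 16661 genes and called under 0.05. Standard errors were taken as the size of a change over the root of its F. With 2 libraries a side, 0.333 is the smallest p of an exact permutation test, which was therefore not used. Limits for a count of 0 (3 reads) cover counting error only, since the reads carry no molecular identifiers. The genes and lists were chosen with earlier results of these data known. The genes named are the 6, RBM39, the clade B serpins beside SERPINB2, up to 3 called genes with the largest change per list and comparison at a mean CPM of at least 1, and the 5 most like SERPINB2 and SRPX2. PLG, LRP1, FOS, HMSD, SYTL4, C10orf55 and 3 cell type markers were added after their values were seen, for their role, place or overlap, where that rule did not name them. Alternatives were DESeq2 1.42.0 (size factors, Wald test), library totals, other filters, only the groups compared, a replicate block, stricter thresholds, thinning to the smallest total and each library left out. 1 gene of the lists is not reported here. The code was tested on simulated data. Tables and plots were made in Python 3.11.15 with matplotlib 3.10.9.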

Additional observations from a re-analysis of the deposited data

Results flagged for a closer look

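By edgeR's test of the difference itself, the responses of parental and resistant cells to indisulam differed for 3 of the 6 genes. Of the 56 tested genes of the wider lists 17 were called higher and 21 lower in this test. The 21 genes named below were named because they were called, so their number is no result. Over all genes tested 50.1% were called in this contrast (22.7% higher and 27.5% lower). The 3 of 6, or 3 of the 5 genes with reads in every library, are near that background. Values are log2 differences, resistant response minus parental response. The groups of 2 libraries are too small for a check of single outlying libraries.

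Of the 6 genes, PLAU (0.22) and PLAT (0.28) had a positive and PLAUR (-0.22) a negative difference. Among activating proteases F12 (0.50) and ST14 (0.18) were positive. Among inhibitors SERPINA5 (-1.18) and TFPI2 (-0.27) were negative, and SERPINA5 lost its call without the first library of either parental group (-0.91 and -0.93) and after thinning (-0.72). Among plasminogen binders ANXA2 (-0.45) and ENO1 (-0.28) were negative and KRT8 (0.22) positive. Among partners of the receptor ITGA5 (0.66) was positive, and ITGB5 (-0.52) and EGFR (-0.35) were negative. Among the remaining lists TIMP1 (-0.47), TIMP2 (-0.24), F2RL1 (-0.41), F2R (-0.22) and SERPINB8 (-0.29) were negative. Positive differences there were found for LTBP1 (0.47), SERPINB9 (0.74), SERPINB1 (0.30), FOSB (1.28), ATF3 (0.97) and JUN (0.45). The difference of F2R was lost under 9 of the alternatives, library totals alone among them (-0.11).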

How the results depend on the processing

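Against 0.5 log2 units by glmTreat, 0 genes were called for the drug in parental cells, 2 in resistant cells (SERPINB2 and SRPX2) and 0 for the difference of the responses. In resistant cells 2 were called with only the groups compared and 2 with an adjusted p under 0.01. With each library left out in turn, 3 to 4 genes were called in parental cells, 2 to 4 in resistant cells and 2 to 4 for the difference. Calls lost under some settings other than glmTreat were the rises of PLAU and PLAUR in resistant cells and the PLAT and PLAUR differences. The SERPINB2 difference of the responses changed sign after thinning (-0.068) and lay between -0.23 and 0.58 with libraries left out, and the response of PLAT in resistant cells was 0.014 with library totals alone. None of these was called. Of the 5 genes most like SERPINB2, 1 stayed on the log2(CPM + 1) scale, 1 over the 4 group means and 2 to 4 with libraries left out. For SRPX2 these were 0, 1 and 2 to 5. The cause of these changes was not tested.

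Replicate numbers in the titles do not pair the samples: deviations of same-numbered libraries from their group means correlated between -0.058 and 0.027. With the replicate block 3 genes were called in parental cells, 4 in resistant cells and 3 for the difference, and SERPINB2 rose by 0.96 log2 units in resistant cells. Of the named genes SERPINI1 lost its call in resistant cells with the block. Parental values of SERPINB2 rest on 10 to 17 reads per library.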
